A study of Mus musculus with 16 samples.

Results

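The genes described here encode contractile proteins of fast muscle fibres: Myh1, Myh2, Myh4, Mylpf, Myl1, Tnnc2, Tnni2, Tnnt3, Tpm1 and Actn3. They were chosen by name, and every probe that the array files assign to these 10 genes was taken, 19 probes among 41174 probes besides controls, or 10 genes among 27745 gene names. RNA came from whole gastrocnemius muscle of male C57BL/6N mice, 8 per group, which were 3 months old when the diets began. All mice received the high-fat diet cHF with the PPARγ agonist rosiglitazone, 10 mg in each kg of diet, over 8 weeks, which is the whole treatment of the cHF+ROSI group. For the second group (cHF+F+ROSI), 15% of the dietary lipids were exchanged for a concentrate of n-3 LC-PUFA, the long-chain fatty acids of fish oil. All mice were then fasted for 10 hours and offered Chow overnight before they were killed, so neither group was free of rosiglitazone, high-fat diet or re-feeding. Each mouse was labelled with Cy5 and hybridised on 1 array against the same Cy3 reference pool, which also held RNA of diet groups not analysed here. Two-color ratios are given below as log2(Cy5/Cy3), and differences between groups as cHF+F+ROSI minus cHF+ROSI on this log2 scale.

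Muscle fibres shorten when the heads of myosin pull on actin filaments. The myosin heavy chain is the motor and exists in isoforms of different speed, the slow one encoded by Myh7 and the fast ones by Myh2 (type 2A), Myh1 (type 2X) and Myh4 (type 2B). Light chains stabilise the neck of the motor, the troponin complex and tropomyosin open the actin filament to it when calcium rises, and alpha-actinin anchors the filaments at the Z-disc. Most of these parts have a fast and a slow isoform encoded by separate genes, and a mouse gastrocnemius consists mainly of fast fibres, with slow fibres gathered in its deep portion. In whole tissue, a lower amount of an isoform can stand for fewer fibres of a type or for less of the RNA per fibre, and these cannot be told apart here.

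The fast myosin heavy chain genes Myh2, Myh1 and Myh4 lie one after another on the plus strand of chromosome 11. Their RefSeq transcription starts (build GRCm38.p6) are 29075 bases apart between Myh2 and Myh1 and 37710 bases apart between Myh1 and Myh4. The stretches from 80 bases before to 20 bases from these starts are shown because Myh2 and Myh1 varied together (below) and Myh4 is their neighbour. By the Myh1 probe A_51_P364788 the lowest values were those of 1 slide, and the relation was not tested within slides. Capitals mark the TATA motif, TATAAA, which begins at position -32 from the start in Myh1 (chr11:67200022-67200121), at -31 in Myh4 (chr11:67237732-67237831) and at 11 in Myh2 (chr11:67170947-67171046).
Myh2: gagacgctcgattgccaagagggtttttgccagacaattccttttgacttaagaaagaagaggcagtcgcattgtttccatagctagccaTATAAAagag
Myh1: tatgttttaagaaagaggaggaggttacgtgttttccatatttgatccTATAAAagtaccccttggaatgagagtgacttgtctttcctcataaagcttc
Myh4: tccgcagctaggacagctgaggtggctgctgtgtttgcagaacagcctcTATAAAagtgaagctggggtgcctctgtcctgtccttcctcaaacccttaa
On either strand, TATAAA was found in this window in 5.31% of the 32851 RefSeq promoters. In the full windows of 300 bases, which RefSeq gives for 7 of the 10 genes, TATAAA was found in Myl1, Myh2, Myh1 and Myh4 (13.6% of all promoters), CAGCTG, a core bound by myogenic factors, in Myl1, Mylpf and Myh4 (16.3% of all), and CATTCC, the core of the MCAT element of muscle promoters, in Myl1, Tpm1, Myh1 and Myh4 (14.7% of all). These matches describe letters only.

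These genes gave some of the brightest spots on the array, and the scanner could not follow many of them. Of the 19 probes, 14 ranked among the 100 brightest of 41174 by median Cy5 signal, and 13 were flagged as saturated in Cy5 on at least 1 array. The Cy3 signal of the same probes was saturated on no array. A Cy5 spot at the scanner ceiling, which lay between 638207 and 653262 intensity units, has only a lower bound in that mouse, and its ratio then follows the Cy3 signal.

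Saturation was not spread evenly over the genes. The brightest Myh4 probe (A_52_P602147) was at the ceiling on all 16 arrays, so it gives no difference between mice in Cy5. The Tnni2 probe, the brighter Tnnt3 probe (A_52_P622418) and the Tpm1 probe A_52_P532910 were saturated in 7 cHF+ROSI mice and 8 cHF+F+ROSI mice each. Mylpf was saturated in 7 and 6 mice, the Tpm1 probe A_51_P325173 in 5 and 7, the Myh2 probe A_51_P225134 in 5 and 6, and Tnnc2 in 5 and 4. For 6 genes (Myh4, Mylpf, Tnnc2, Tnni2, Tnnt3, Actn3) no probe stayed below the ceiling on every array, although Actn3 was flagged as saturated in only 1 mouse, at 95.1% of the ceiling.

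The other 6 probes stayed below the ceiling in every mouse. These were the Myh2 probe A_51_P395652 (6.95% to 29.7% of the ceiling), the Myh1 probes A_51_P364788 (0.508% to 1.63%) and A_52_P257638 (0.0413% to 0.0795%), the Myl1 probes A_51_P416858 (39.3% to 80.2%) and A_52_P273120 (8.47% to 15.3%), and the Tpm1 probe A_52_P44949 (0.324% to 0.898%). Myh1, Myh2, Myl1 and Tpm1 therefore had at least 1 full measurement in each of the 16 mice. The second Myh1 probe of this group, A_52_P257638, is listed in mm8 at chr11:67040695-67040754 with its coordinates in descending order, against the ascending order of the other Myh1 probes, so it lies on the strand opposite to Myh1 and does not read Myh1 mRNA.

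**Figure D1:**
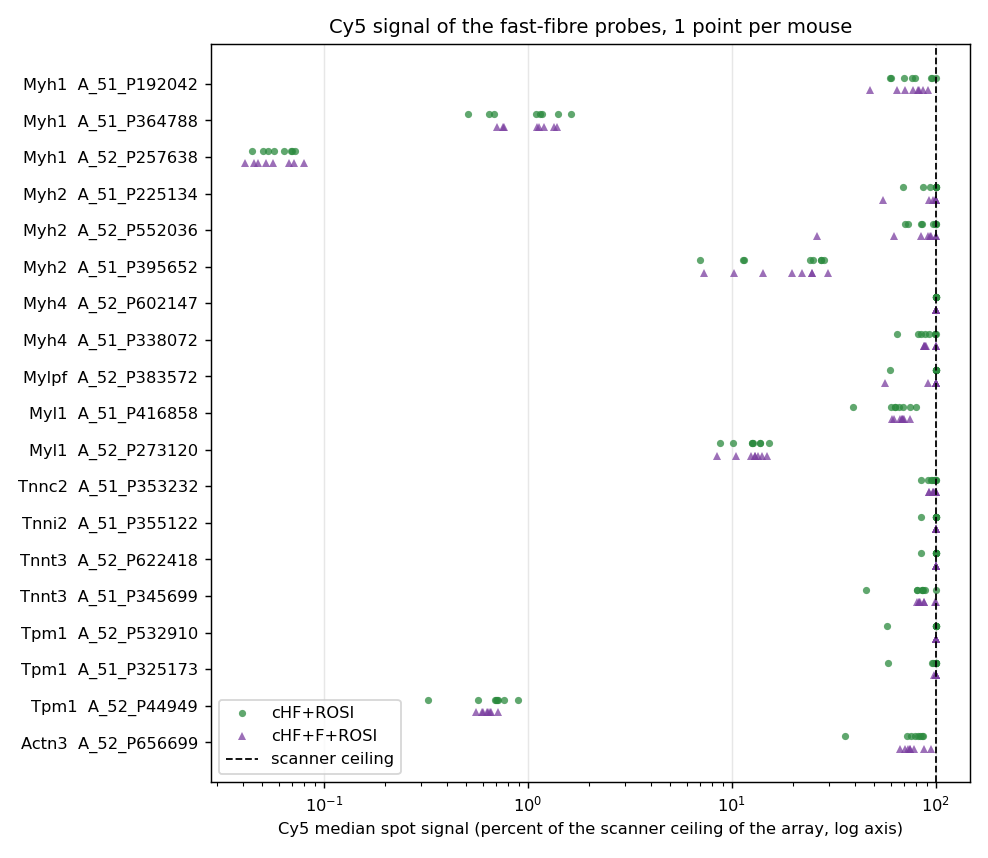
Cy5 median spot signal of each probe as percent of the scanner ceiling of its array (log axis), with 1 point per mouse (green circles, 8 cHF+ROSI; violet triangles, 8 cHF+F+ROSI) and a dashed line at the ceiling. At least 1 mouse was flagged as saturated for 13 of the 19 probes, with a single mouse for Actn3 and for the Myh1 probe A_51_P192042, and the Myh2 probe A_51_P395652 spreads from 6.95% to 28.2% in cHF+ROSI and from 7.28% to 29.7% in cHF+F+ROSI mice.

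The array of cHF+ROSI replicate 1 stood apart. Its Cy5 signal was the dimmest, with 5 saturated spots against 16 to 29 on the other 15 arrays and with 1 saturated member probe against 5 to 12. The median Cy3 signal of the 13 probes that saturate was 104890 on this array and between 48151.5 and 68608.8 on the others, although every array received the same pool. Differences without this mouse are given below for some of the probes. Of the others, Mylpf had 0.13 without it in place of 0.17. The Myh2 probe A_51_P225134 had -0.16 in place of -0.22, and the Myh2 probe A_51_P395652 had -0.27 in place of -0.22.

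No probe of these genes passed the adjusted threshold between cHF+F+ROSI and cHF+ROSI mice. By limma with Benjamini-Hochberg adjustment over 19398 probes, 0 of the 19 probes had an adjusted p under 0.05, against 3 of all probes (0.0155%), and the adjusted p of the 19 lay between 0.626 and 0.99. At an unadjusted p of up to 0.05, 1 of the 19 probes passed (5.26%), against 7.44% of all probes. The 10 negative and 9 positive differences ran from -0.29 to 0.20 with a median of -0.07, beside a median of -0.00 over all probes. The median size of a difference, without its sign, was 0.12 for the 19 probes and 0.05 for all probes, and the 95% interval of 18 of the 19 held 0. Most of the 19 were among the brightest probes of the array, so these median sizes set unlike signal levels side by side. Scaling between arrays turned the sign of 10 of the 19 differences.

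**Figure D2:**
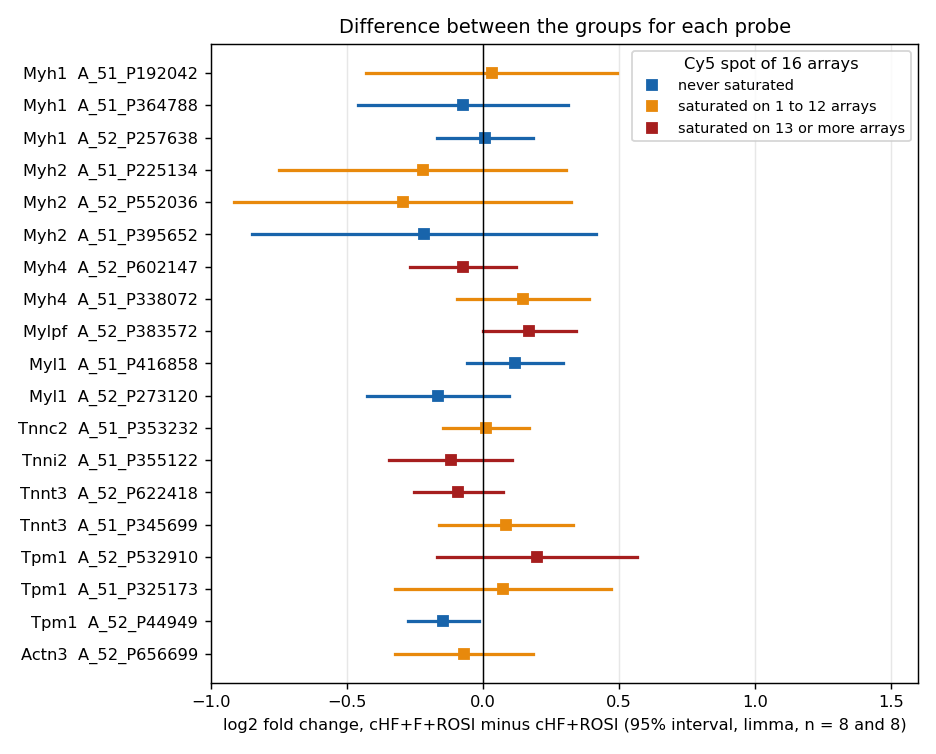
Difference of log2 ratios (cHF+F+ROSI minus cHF+ROSI) for each probe, as a square with its 95% interval from limma (n = 8 and 8); colours show on how many of the 16 arrays the Cy5 spot was saturated. All intervals but that of the Tpm1 probe A_52_P44949 cross 0, and those of the 3 Myh2 probes are the widest.

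Myh2, the heavy chain of the fast oxidative fibres, had the lowest point estimates and the largest spread, although the estimate of its unsaturated probe turned to 0.54 with scaling between arrays. Its unsaturated probe A_51_P395652 (mm8 chr11:67009004-67009168, a span that exceeds the 60 bases of a probe, as for a probe across an intron) had ratios of -2.04, -0.62 and -0.23 (lowest, median, highest) in cHF+ROSI mice and of -2.40, -0.96 and -0.25 in cHF+F+ROSI mice. The groups overlapped over nearly the whole range, and 5 of 8 cHF+F+ROSI mice lay below the cHF+ROSI mean. The means were -0.88 ± 0.65 and -1.09 ± 0.68 (SD, n = 8 each), a difference of -0.22 with a 95% interval of -0.85 to 0.42 (limma, adjusted p = 0.911; exact permutation test over the mice, two-sided, p = 0.526). Across all 16 mice the ratios spanned 2.17 log2 units, or 4.51-fold.

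The other Myh2 probes, A_51_P225134 and A_52_P552036, overlap each other (mm8 chr11:67013603-67013662 and chr11:67013645-67013704), so they share sequence and are no separate evidence. Their differences were -0.22 (95% interval -0.75 to 0.31) and -0.29 (-0.91 to 0.32), with limma adjusted p of 0.885 and 0.865. Scaling between arrays moved them to -0.89 and -1.05, and with saturated spots left out they were -0.61 and -0.22. The first had ratios of -0.41, 0.57 and 0.84 in cHF+ROSI mice and of -1.20, 0.41 and 0.91 in cHF+F+ROSI mice, and in both groups most mice were at the Cy5 ceiling. All 3 Myh2 probes were lowest in the same mouse, cHF+F+ROSI replicate 2. Without it the 3 differences were -0.03 for A_51_P395652, -0.02 for A_51_P225134 and -0.05 for A_52_P552036.

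Myh1, the heavy chain of 2X fibres, gave differences near 0 with wide intervals. Its brightest probe (A_51_P192042, mm8 chr11:67040631-67040690, 47.4% to 100% of the ceiling) had ratios of -0.05, 0.73 and 1.01 in cHF+ROSI mice and of -0.32, 0.64 and 1.42 in cHF+F+ROSI mice. The difference was 0.03 (95% interval -0.43 to 0.49; limma adjusted p = 0.987), and 4 of 8 cHF+F+ROSI mice were above the cHF+ROSI mean. The unsaturated probe A_51_P364788 differed by -0.07 (-0.46 to 0.31; adjusted p = 0.962), with -2.0, -1.07 and -0.80 in cHF+ROSI and -1.83, -1.24 and -0.90 in cHF+F+ROSI mice. The opposite-strand probe differed by 0.01 (-0.17 to 0.18). Without the dim array of cHF+ROSI replicate 1, these differences were 0.06, -0.03 and 0.06.

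Myh4, the heavy chain of 2B fibres, could be followed only in part. The less bright probe (A_51_P338072, mm8 chr11:67076527-67076586) was saturated in 3 mice of each group and had ratios of 0.43, 0.96 and 1.12 in cHF+ROSI mice and of 0.66, 0.98 and 1.36 in cHF+F+ROSI mice. In cHF+F+ROSI, 6 of 8 mice exceeded the mean of the other group, and the difference was 0.15 (95% interval -0.09 to 0.39; limma adjusted p = 0.818; exact permutation p = 0.257). The probe saturated in every mouse had -0.07 (-0.27 to 0.12), and no fold is given for it.

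**Figure D3:**
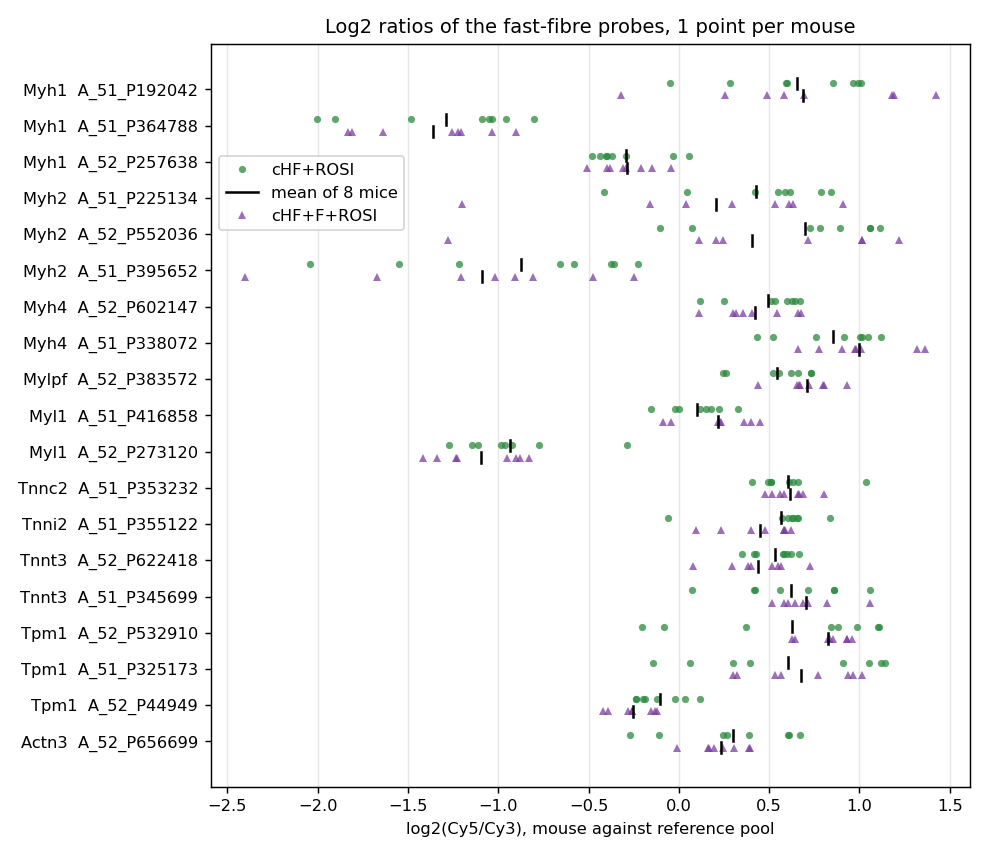
Log2(Cy5/Cy3) of each probe in each mouse (green circles, cHF+ROSI; violet triangles, cHF+F+ROSI; black bars, means of 8 mice). The groups overlap for all 19 probes, and the 3 Myh2 probes and the Myh1 probe A_51_P192042 have the widest ranges.

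The light chains gave small positive and negative differences. Mylpf, the fast regulatory light chain (A_52_P383572), had ratios of 0.25, 0.59 and 0.73 in cHF+ROSI mice and of 0.44, 0.70 and 0.93 in cHF+F+ROSI mice. The upper ends overlapped, and 7 of 8 cHF+F+ROSI mice exceeded the other group's mean. The difference was 0.17 with an unadjusted limma p of 0.0523 and an adjusted p of 0.679 (exact permutation p = 0.0692). At this probe the Cy3 signal of the common pool was itself lower on the cHF+F+ROSI arrays, by -0.24 (limma on Cy3 alone, unadjusted p = 0.00952, adjusted p = 0.932), and the Cy5 signal alone, quantile normalized, differed by -0.10. With 13 of 16 Cy5 spots at the ceiling, the positive ratio was therefore seen only relative to the pool.

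Myl1, the alkali light chain of fast fibres, had 2 unsaturated probes whose differences had opposite signs. The brighter (A_51_P416858, mm8 chr1:66857582-66857641) had ratios of -0.15, 0.13 and 0.33 in cHF+ROSI mice and of -0.09, 0.23 and 0.45 in cHF+F+ROSI mice, a difference of 0.12 (95% interval -0.06 to 0.29; limma adjusted p = 0.798). The other (A_52_P273120, mm8 chr1:66863487-66867734) had -1.27, -0.97 and -0.29 against -1.42, -1.09 and -0.83, a difference of -0.16 (-0.43 to 0.10; adjusted p = 0.809). Its highest value belonged to the dim array of cHF+ROSI replicate 1, and without that mouse the difference was -0.07. The probes target different stretches of the gene, and whether they read different transcripts was not tested.

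The fast troponin genes gave small differences of both signs. Tnnc2, the calcium-binding subunit, had ratios of 0.40, 0.56 and 1.03 in cHF+ROSI mice and of 0.47, 0.62 and 0.81 in cHF+F+ROSI mice, a difference of 0.01 (95% interval -0.15 to 0.17; limma adjusted p = 0.987). Its highest value again came from the dim array, and the remaining 15 mice lay between 0.40 and 0.81, with a difference of 0.07. Tnni2, the inhibitory subunit, differed by -0.12 (-0.34 to 0.11; adjusted p = 0.849), and 15 of 16 mice were at the Cy5 ceiling. Without cHF+ROSI replicate 6, its lowest mouse, the difference was -0.21 with an unadjusted limma p of 0.0156 and an adjusted p of 0.542.

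Tnnt3, the subunit that binds tropomyosin, gave -0.09 (95% interval -0.25 to 0.07) by its brighter probe and 0.08 (-0.16 to 0.33) by the other (A_51_P345699), which was saturated in 1 mouse on cHF+ROSI and 2 on cHF+F+ROSI. The limma adjusted p were 0.839 and 0.913. Without the dim array the second difference was 0.05. For Tnni2, the brighter Tnnt3 probe and the Tpm1 probe A_52_P532910, 8 cHF+F+ROSI and 7 cHF+ROSI mice were at the ceiling, so both groups have only a lower bound in Cy5 and no fold is given.

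Tpm1, an alpha-tropomyosin gene that muscle fibres and other cells splice in several ways, held the only probe with an unadjusted p of up to 0.05. This dim, unsaturated probe (A_52_P44949, mm8 chr9:66822206-66822265) had ratios of -0.24, -0.15 and 0.12 in cHF+ROSI mice and of -0.42, -0.26 and -0.12 in cHF+F+ROSI mice. The groups overlapped between -0.24 and -0.12, while 8 of 8 cHF+F+ROSI mice lay below the cHF+ROSI mean. The difference was -0.15 (95% interval -0.28 to -0.01), that is 1.11-fold lower in cHF+F+ROSI, with an unadjusted limma p of 0.0324, an exact permutation p of 0.0361 and a limma adjusted p of 0.626. It did not pass the adjusted threshold. The unadjusted p rose above 0.05 without any of 5 mice, the difference being -0.13 without cHF+ROSI replicate 1, -0.13 without replicate 5 and -0.11 without replicate 6 of that group, -0.13 without cHF+F+ROSI replicate 3 and -0.12 without its replicate 6, with p from 0.0598 to 0.0731. It also did so with the processed signals of Feature Extraction (p = 0.113), median centring (p = 0.0646), Cy5 alone (p = 0.205), the authors' table (p = 0.161) and the replicate number as a block (p = 0.0678).

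The bright Tpm1 probes lay on the other side of 0. A_52_P532910 differed by 0.20 (95% interval -0.17 to 0.57) and A_51_P325173 by 0.07 (-0.32 to 0.47), with limma adjusted p of 0.842 and 0.963. On A_52_P532910 all 8 cHF+F+ROSI mice lay between 0.63 and 0.96, and the cHF+ROSI mice between -0.20 and 1.11, with the dim array of replicate 1 at the low end. Without that mouse the difference was 0.08, and that of A_51_P325173 was -0.0046. Actn3, the alpha-actinin of fast fibres (A_52_P656699), had -0.27, 0.33 and 0.67 in cHF+ROSI mice and -0.01, 0.22 and 0.39 in cHF+F+ROSI mice, a difference of -0.07 (-0.32 to 0.19; adjusted p = 0.939), or -0.13 without the dim array.

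The arrays lay on 4 slides, each with 2 mice of either group, so every comparison could be repeated within slides. Myh2 (A_51_P395652) was lower in cHF+F+ROSI mice on 3 of 4 slides, with differences of -0.60, -0.23, -0.39 and 0.35. The Tpm1 probe A_52_P44949 was lower on 3 of 4 slides (-0.19, -0.03, -0.39 and 0.02), and Mylpf was higher on 3 of 4 (0.20, 0.33, 0.23 and -0.07). Tnnc2 had -0.14, 0.10, 0.09 and -0.01. No probe had the same sign on all 4 slides. With the slide as a block, limma gave an adjusted p of at least 0.699 for each of the 19 probes. Within slides the groups kept to fixed array positions, so that position and diet cannot be told apart.

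The range over the 16 mice was widest for the 3 Myh2 probes (2.11 to 2.50 log2 units), followed by the Myh1 probe A_51_P192042 (1.74), and smallest for the Tpm1 probe A_52_P44949 (0.53). On the unsaturated Myh2 probe A_51_P395652, the 4 lowest mice came from both groups, namely cHF+F+ROSI replicates 2 (-2.40) and 8 (-1.67) and cHF+ROSI replicates 8 (-2.04) and 7 (-1.55). The unsaturated Myh1 probe A_51_P364788 was low in the same 4 mice, at -1.64, -1.81, -2.0 and -1.90, and also in cHF+F+ROSI replicate 1 at -1.83, these being its 5 lowest values. Of these, cHF+ROSI replicates 7 and 8 and cHF+F+ROSI replicates 1 and 8 were the whole of slide 4 and had the lowest Myh1 values. The relation was not tested within slides, so slide and mouse cannot be told apart in it. Over the 16 mice the probes correlated with a Pearson r of 0.79 (permutation p = 0.0004, adjusted over 4 relations 0.0016) and a Spearman rho of 0.77 (permutation p = 0.00087, adjusted 0.00348). Within the 8 cHF+ROSI mice r was 0.83 (exact permutation p = 0.0143) and within the 8 cHF+F+ROSI mice 0.77 (exact permutation p = 0.0213). Without the 2 mice farthest from the median of Myh1, r was 0.72 over all mice, 0.17 within cHF+ROSI, 0.94 within cHF+F+ROSI. In the former group the relation thus rested on replicates 7 and 8, its arrays on slide 4. The mice left out of cHF+F+ROSI, replicates 1 and 8, were likewise its arrays on slide 4. Both values of a mouse come from 1 array. Myosin heavy chain sequences are alike, and binding of one transcript to the other's probe was not tested.

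**Figure D4:**
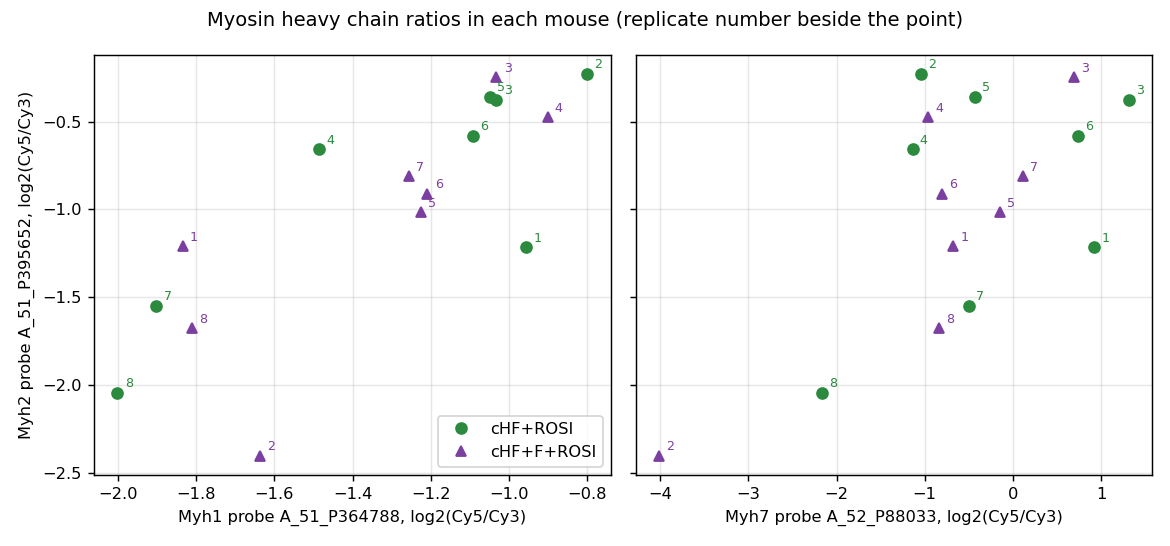
Log2(Cy5/Cy3) of the unsaturated Myh2 probe against the unsaturated Myh1 probe (left) and against Myh7, the slow heavy chain (right), 1 point per mouse with its replicate number (green circles, cHF+ROSI; violet triangles, cHF+F+ROSI). Mice of both groups lie along the rise of Myh2 with Myh1 on the left, and on the right cHF+F+ROSI replicate 2 stands alone at a Myh7 value of -4.01. The lowest Myh1 values on the left are those of the arrays of slide 4.

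The brightest probes, as chosen for the other comparisons, include a Myh2 probe that was saturated on 11 of 16 arrays, where its ratio follows Cy3. By these probes, Myh1 and Myh2 gave an r of 0.82 (permutation p = 0.00013, adjusted over 4 relations 0.00052; rho 0.76, permutation p = 0.00116, adjusted 0.00464) and 0.77 without the 2 farthest mice. Myh2 and Myh7 gave an r of 0.76 (permutation p = 0.0021, adjusted 0.0042), a rho of 0.45 (permutation p = 0.0786, adjusted 0.123) and an r of 0.56 without 2 mice. Within groups r was 0.56 in cHF+ROSI (exact permutation p = 0.156) and 0.86 in cHF+F+ROSI (exact permutation p = 0.0253), and in the latter it was 0.27 without replicates 2 and 3, so the relation rests on these mice. On the unsaturated Myh2 probe the relation with Myh7 gave 0.66 over all mice and 0.38 without the 2 farthest.

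Myh4 gave no correlation with Myh2 or Myh1 past the threshold over all mice. By its brightest probe, r was -0.39 with Myh2 (permutation p = 0.13, adjusted 0.174; rho -0.44, permutation p = 0.0945) and -0.26 with Myh1 (permutation p = 0.324, adjusted 0.324; rho -0.40, permutation p = 0.123). In the cHF+F+ROSI group alone r with Myh2 was -0.88 (exact permutation p = 0.00097) and in the cHF+ROSI group 0.17 (exact permutation p = 0.737), and the difference between the groups was not tested. Since that Myh4 probe was at the Cy5 ceiling in every mouse, its ratio moved with Cy3. The less saturated probes (A_51_P338072 for Myh4) gave -0.22 over all mice (permutation p = 0.402) and -0.64 in cHF+F+ROSI mice (exact permutation p = 0.0833), and 0.54 in the latter without replicates 2 and 8.

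Correlations between probes of 1 gene differed between genes. Where a spot was at the Cy5 ceiling its ratio follows the Cy3 of the same array, so a correlation of such probes does not show that they read the mouse RNA alike. This holds for the Myh4 pair, saturated on 16 and 6 arrays, for the bright Tpm1 pair, on 12 and 15, and for the overlapping Myh2 pair, on 11 and 6. Over the 16 mice, the 3 pairs of Myh2 probes had a Pearson r of 0.95, 0.84 and 0.79, the overlapping pair being the highest, and 0.87, 0.67 and 0.49 without the 2 farthest mice. The Myh1 pair had 0.56, the Myh4 pair 0.62 and the bright Tpm1 pair 0.80. The dim Tpm1 probe A_52_P44949 had -0.52 and -0.40 with the bright ones, and 0.27 and 0.14 without cHF+ROSI replicates 1 and 6. The Tnnt3 pair had -0.11 and the Myl1 pair 0.17. With Benjamini-Hochberg adjustment over these 10 pairs, permutation p of r were 0.0001, 0.000233 and 0.00107 for Myh2, 0.0418 for Myh1, 0.0215 for Myh4 and 0.00015 for the bright Tpm1 pair, the other 4 being between 0.0526 and 0.685. Spearman's rho was 0.84, 0.73 and 0.53 for Myh2 (adjusted permutation p of 0.0004, 0.00613 and 0.0636), 0.57 for Myh1 (0.0471), 0.66 for Myh4 (0.0173) and 0.86 for the bright Tpm1 pair (0.0004).

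Of the fast genes, Mylpf, Tnnc2, Tnni2 and Tnnt3 were also set against a slow counterpart in the same mouse. Myl1 with Myl3, Tpm1 with Tpm3 and the fast heavy chains with Myh7 were not paired in this way. The fast probes were at the Cy5 ceiling on 13 (Mylpf), 9 (Tnnc2), 15 (Tnni2) and 15 (Tnnt3) of 16 arrays, so these values and their tests are of the ratios as measured, capped on the fast side. For Mylpf minus Myl2 the values were 0.19, 0.61 and 2.08 (lowest, median, highest) in cHF+ROSI mice and 0.44, 1.28 and 3.91 in cHF+F+ROSI mice. The groups overlapped from 0.44 to 2.08, and 6 of 8 cHF+F+ROSI mice were above the cHF+ROSI mean. The difference of 0.63 was within the spread (exact permutation test, two-sided, p = 0.173, adjusted over 4 pairs 0.565). It was made of 0.17 from Mylpf and -0.46 from Myl2.

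The troponin pairs gave differences of similar size. Their fast parts were 0.01 (Tnnc2), -0.12 (Tnni2) and -0.09 (Tnnt3), against slow parts of -0.37 (Tnnc1), -0.53 (Tnni1) and -0.43 (Tnnt1). Tnnc2 minus Tnnc1 had means of 0.66 ± 1.00 (SD, n = 8) in cHF+ROSI and 1.04 ± 0.86 (n = 8) in cHF+F+ROSI mice, a difference of 0.39. With saturated spots left out, which leaves 3 cHF+ROSI and 4 cHF+F+ROSI mice, it was 1.07 (exact permutation p = 0.0857). Tnni2 minus Tnni1 had 0.93 ± 1.04 and 1.34 ± 0.87, a difference of 0.42. Tnnt3 minus Tnnt1 had 1.03 ± 0.95 and 1.37 ± 1.23, a difference of 0.34. Exact permutation p were 0.423, 0.4 and 0.577, or 0.565, 0.565 and 0.577 after adjustment. In all 4 pairs the highest value was that of cHF+F+ROSI replicate 2, and without this mouse the differences were 0.13 for Tnnc2, 0.17 for Tnni2, -0.07 for Tnnt3 and 0.28 for Mylpf. Without cHF+ROSI replicate 1 the Tnnt3 pair differed by 0.20.

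**Figure D5:**
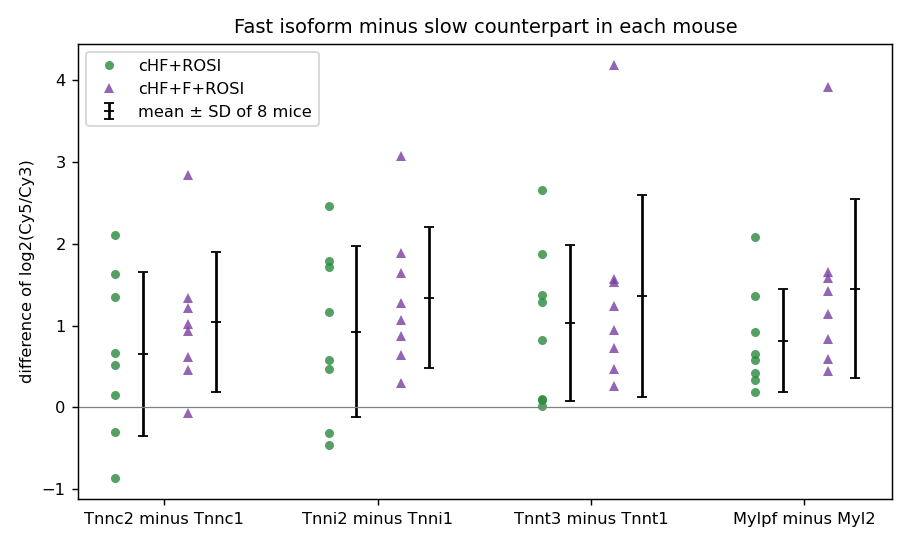
Difference of log2(Cy5/Cy3) between a fast isoform and its slow counterpart in each mouse (green circles, 8 cHF+ROSI; violet triangles, 8 cHF+F+ROSI), with the mean ± SD beside the points. The groups overlap in all 4 pairs, and the highest point of each, up to 4.19 for Tnnt3 minus Tnnt1, is cHF+F+ROSI replicate 2.

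Most slow counterparts had lower point estimates in cHF+F+ROSI mice, with wide ranges. Of 8 measured, 7 had a negative difference, against 50.7% of all probes. The median was -0.41 beside -0.00 over all probes. By limma 0 passed an adjusted p of 0.05 or an unadjusted p of 0.05 (7.44% of all probes). The mean ratio of the 8 was lowest in cHF+F+ROSI replicate 2 (-2.22), where Myh7 was -4.01, Tnnt1 -3.46 and Myl2 -3.19. Within its group this mouse had the lowest value of each gene but Tpm3. The differences of these genes without it are not given here. Myh7 had -0.54 (95% interval -1.77 to 0.69; limma adjusted p = 0.878) and ranged from -4.01 to 1.32. Myl3, the slow alkali light chain, had a narrow range, with 0.03 to 0.55 in cHF+ROSI and 0.07 to 0.58 in cHF+F+ROSI mice. Tpm3, the slow tropomyosin, had -0.14 (-0.30 to 0.03; adjusted p = 0.723).

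Other genes of fast fibres gave differences of both signs. Of 7 measured (Mybpc2, Myoz1, Atp2a1, Pvalb, Casq1, Mylk2, Ckm), 4 were negative and 3 positive, 0 passed an adjusted p of 0.05 and 1 an unadjusted p of 0.05 (against 7.44% of all probes), with a median of -0.06. That gene was Mylk2, the kinase of the fast regulatory light chain encoded by Mylpf. It had 0.16, 0.42 and 0.76 in cHF+ROSI mice and -0.21, 0.03 and 0.27 in cHF+F+ROSI mice, overlapping only between 0.16 and 0.27. Its difference was -0.36 (95% interval -0.57 to -0.16), with an unadjusted limma p of 0.00159 and an adjusted p of 0.293. Its Cy5 spot was saturated on no array. Pvalb, the calcium buffer of fast fibres, had 0.04 (-0.20 to 0.28), and Atp2a1, their calcium pump, -0.15 (-0.43 to 0.14).

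Of 10 other sarcomere genes measured, 5 were negative and 5 positive, 0 passed an adjusted p of 0.05 and 1 an unadjusted p of 0.05 (against 7.44% of all probes), with a median of -0.04. Actc1, the cardiac and developmental actin, had 0.23 (95% interval 0.01 to 0.45; unadjusted limma p = 0.0443, adjusted p = 0.66; exact permutation p = 0.0651). Acta1, the actin of adult skeletal muscle, had 0.02 and was saturated on 15 of 16 arrays, and Tcap, which caps titin, had -0.10 and was saturated on all 16. Myh8, another myosin heavy chain, had 0.07 and was also saturated on 15 of 16 arrays. Whether its probe binds transcripts of other myosin heavy chains was not tested.

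Markers of other cells that whole muscle can hold were described in the same fit. For 8 adipocyte genes the median difference was 0.25 (6 positive, 2 negative), and their mean ratio ran from -0.82 to 0.35 in cHF+ROSI and from -1.24 to 0.92 in cHF+F+ROSI mice. For 4 red blood cell genes it was 0.17 (all positive), with mean ratios from -0.68 to -0.06 in cHF+ROSI and from -0.60 to 0.94 in cHF+F+ROSI mice. All 4 genes were highest in the same cHF+F+ROSI mouse, at 1.02 for Hba-a1, 1.64 for Hbb-b1, 0.92 for Alas2 and 0.20 for Slc4a1. The differences without this mouse are not given here. Hba-a1 had a lower group median in cHF+F+ROSI mice (-0.57 against -0.51), while Hbb-b1, Alas2 and Slc4a1 had higher ones. The median difference was -0.04 for 7 macrophage genes and -0.10 for 8 tendon and fibroblast genes. For 6 general skeletal muscle genes (Ckm, Acta1, Mb, Des, Cav3, Ryr1) it was -0.02, Acta1 being saturated on 15 arrays and Mb on 1. None of these genes passed an adjusted p of 0.05 by limma, and 0 of them an unadjusted p of 0.05. Their part in the ratios of the fast-fibre genes was not tested.

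The Cy3 channel held the same RNA on every array. The Myh2 probe A_51_P225134 had its lowest Cy5 (352442) and its highest Cy3 (126290) on the same array, that of cHF+F+ROSI replicate 2. Whether Cy3 at a probe also moved with the RNA of the mouse was not tested, so Cy3 differences cannot be assigned to the arrays alone. Fitted alone, the Cy3 difference of the 19 probes (cHF+F+ROSI arrays minus cHF+ROSI arrays) ran from -0.24 (Mylpf) to 0.10 (Myh2 A_51_P225134), with a smallest limma adjusted p of 0.932. One probe, that of Mylpf, had an unadjusted p of up to 0.05 there, or 1 of 19 against 3.47% of all probes. The Cy3 difference of the Tpm1 probe A_52_P44949 was 0.03 (unadjusted p = 0.299).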

How the data were processed

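Total RNA of 16 mice was hybridised to whole mouse genome Agilent arrays in dual color, Cy5 for the mouse and Cy3 for an equimolar pool. The authors deposited intensities of every spot from Feature Extraction (10.5.1.1 per the file headers, 10.5.5.1 per the processing notes) and a table of normalized log2 values in which the cHF+F+ROSI columns could be tied to the group but not to single mice. Probe coordinates follow mm8 as in the file headers. No dyes were swapped.

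Median intensities were corrected by normexp with an offset of 50. Control and outlier-flagged spots were removed, a mean ratio of signal to background of 2 or more in Cy5 and in Cy3 was required (19398 of 41174 probes, including all 19 of the genes described), and loess was applied within each array. Saturated spots stayed in at their value. Replicate spots were averaged per probe. limma 3.58.1 (lmFit, eBayes; R 4.3.3) compared the groups, and p-values were adjusted by Benjamini-Hochberg across every probe kept. Exact permutation tests over mice (scipy 1.17.1) used all 12870 divisions of 16 mice into 8 and 8, and correlations over 16 mice used 100000 permutations. A gene in a list was represented by its brightest probe. Of the 19 probe accessions, 16 matched the same symbol in RefSeq and 3 had no match. From the lists, 2 genes (Mybpc1, Hbb-b2) were not found by name, and Myoz3, Myh13, Mybpc3 and Itgam did not pass the filter. All probes of the 10 genes were reported, and other genes only from fixed lists of fast-fibre, sarcomere, slow and cell marker genes. Members and lists were chosen with earlier results of these data known. The chain was tested on simulated data.

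The median Cy5 signal of an array lay between 121.5 and 186 units and the median Cy3 signal between 79.5 and 87, and the number of arrays limits the precision. No 2 arrays held identical values. Samples with the same replicate number had correlations of their deviations between -0.338 and 0.727, over 0.1 in 4 of 8, so the numbers were not taken as pairs. Alternatives covered background, normalization, channel, filter, saturated spots, blocks, weights, the test and each mouse left out. The samples' labels name single mice. No sequence of an array probe was used here.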

Additional observations from a re-analysis of the deposited data

Results flagged for a closer look

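In groups of 8 mice, 5 of 46 sets of values held 1 mouse farther from its nearest neighbour than a 95% limit allows, where chance gives about 1 in 20 sets. The Myh2 probe A_52_P552036 was -1.28 in cHF+F+ROSI replicate 2, against 0.11 in the next mouse. In the same mouse Tnnt3 minus Tnnt1 was 4.19 (next 1.57) and Mylpf minus Myl2 was 3.91 (next 1.66), while Myh7 was -4.01. Tnnc2 was 1.03 in cHF+ROSI replicate 1, the dim array, against 0.66 in the next mouse. Tnni2 was -0.058 in cHF+ROSI replicate 6, against 0.57 in the next, at a spot saturated in Cy5.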

How the results depend on the processing

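Under 15 alternatives and with each of 16 mice left out, 0 of the 19 probes reached an adjusted p of 0.05 and the smallest adjusted p was 0.429. The count of probes at an unadjusted p of up to 0.05 was 1 as reported. It was 2 without background correction, with mean signals and with no filter on low signals, it was 0 with the processed signals of Feature Extraction, with median centring, with Cy5 alone and in the authors' table, and it ranged from 0 to 2 with 1 mouse left out. It was 0 without cHF+ROSI replicate 1 or 5 or cHF+F+ROSI replicate 3 or 6, and 2 without cHF+ROSI replicate 2, 7 or 8 or cHF+F+ROSI replicate 1, and without cHF+ROSI replicate 6 the 1 probe was that of Tnni2 in place of Tpm1. The methods' t-test gave 1 of the 19 probes at its threshold and 0 after Benjamini-Hochberg adjustment, against 1463 and 2 of all probes. The replicate numbers did not pair the samples (2 of 8 cHF+ROSI mice correlated best with their own number). With the replicate block, 0 of 19 probes had an adjusted p under 0.05, the smallest being 0.612, 1 had an unadjusted p of up to 0.05 (Mylpf in place of Tpm1), and the fast-minus-slow differences of 0.39 for Tnnc2, 0.42 for Tnni2, 0.34 for Tnnt3 and 0.63 for Mylpf, which a balanced block cannot move, had adjusted p from 0.219 to 0.422 (exact sign flips within pairs).

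Of the single-probe differences under these alternatives, 52 of 570 had another sign than reported, and 5 of the 19 probes kept their sign under all alternatives in which they could be fitted. Among these, the Tnni2 probe and the Tpm1 probe A_52_P532910 could not be fitted with saturated spots left out. Scale normalization between arrays turned the most, with Myh1 at -0.72 (A_51_P192042), 0.64 (A_51_P364788) and -0.026 (A_52_P257638), Myh2 A_51_P395652 at 0.54, Myh4 A_51_P338072 at -0.55, Tnnc2 at -0.68, Tnnt3 A_51_P345699 at -0.40, Mylpf at -0.037, Tpm1 A_51_P325173 at -0.072, Myl1 A_52_P273120 at 0.089, Tnnc2 minus Tnnc1 at -0.10 and Tnni2 minus Tnni1 at -0.18. With Cy5 alone, Myh1 was -0.134, 0.011 and -0.105 by the same 3 probes, Tnnc2 -0.0096, Mylpf -0.098 and Myl1 A_51_P416858 -0.00046. In the authors' table Myh1 A_51_P364788 was 0.0042 and A_52_P257638 -0.093, Myh4 A_52_P602147 0.022, Tnnt3 A_52_P622418 0.0083 and Actn3 0.027. The Myh1 probe A_52_P257638 was -0.060 without background correction, -0.091 with processed signals and -0.0080 with mean signals. Tnnc2 was -0.0079 with processed signals, -0.013 with median centring and -0.026 with saturated spots left out, Myh1 A_51_P192042 was -0.0075 with median centring, and Tpm1 A_51_P325173 was -0.033 with array weights. As means of all probes of a gene, Myh1 was -0.011, Myh4 0.038 and Myl1 -0.024. The causes were not tested. With 1 mouse left out, Tpm1 A_51_P325173 ranged from -0.034 to 0.15, Myh1 A_52_P257638 from -0.027 to 0.058, Tnnc2 from -0.018 to 0.072, Myh1 A_51_P192042 from -0.074 to 0.18, Tnnt3 minus Tnnt1 from -0.065 to 0.57, Tnnc2 minus Tnnc1 from 0.13 to 0.59, Tnni2 minus Tnni1 from 0.17 to 0.64 and Mylpf minus Myl2 from 0.28 to 0.81. The relations by the least saturated probes and between probes of 1 gene were chosen after seeing the data. With saturated spots left out, 13 of the 19 probes could be fitted. The Cy5 ceiling limits 13 of the 19 probes.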
